A study of Mus musculus with 28 samples.

Results

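The 10 genes described here decide whether a cell leaves G1 and starts to copy its DNA. They are the D cyclins Ccnd1, Ccnd2 and Ccnd3, the kinases Cdk4 and Cdk6, the INK4 inhibitors Cdkn2a, Cdkn2b and Cdkn2c, the CIP/KIP inhibitor Cdkn1b, and the retinoblastoma gene Rb1. They were taken by name from the known pathway, and all 10 were among the 13519 genes counted.

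Their levels were measured by RNA-seq in colon epithelial organoids from C57BL/6N mice. AC organoids carried Apc flox/flox and the Villin::CreERT2 transgene, which expresses a tamoxifen-activated Cre recombinase in intestinal epithelium. PAC organoids carried in addition Trp53 LSL-R172H/+, BAC organoids Braf floxV600E/+, and BPAC organoids both alleles, so that the floxed Apc and the Cre were shared by every group. There were 7 donor mice, of which 1 gave AC organoids and 2 gave those of each other genotype, with 2 cultures per donor, called duplicates 1 and 2. Each of the 14 cultures was exposed for 24 hours to ethanol (EtOH) or to 3.5 µM 4-hydroxytamoxifen (4-HT), and was harvested for RNA after 3 days, which made 28 samples, n = 2 per treatment for AC and n = 4 for the others. No organoids without floxed Apc were sampled, so an effect of 4-HT and one of recombination cannot be told apart. Ages of the donors were not given in the sources used here.

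D cyclins are the part of the cell cycle engine that responds to growth signals, among them those of the WNT and RAS-ERK pathways. They bind CDK4 or CDK6, and the active kinase phosphorylates the RB protein, which then releases E2F transcription factors that switch on S-phase genes. INK4 proteins bind CDK4 and CDK6 and keep D cyclins away, and their induction by oncogenes is a known brake on proliferation. The CIP/KIP protein p27, encoded by Cdkn1b, inhibits mainly CDK2 complexes.

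Of the 10 genes, 2 passed the threshold for a 4-HT change in each of the 4 genotypes, Cdk4 and Cdkn2b. Their promoters are shown for this reason, as 300 bases each (250 before and 50 after the gene start, RefSeq, GRCm38.p6), written 5′ to 3′ on the strand of the gene. The Cdk4 window is chr10:127063285-127063584 on the plus strand, and its capitals mark the E-box CACGTG. The Cdkn2b window is chr4:89310983-89311282 on the minus strand, and its capitals mark the cAMP response element TGACGTCA.
Cdk4: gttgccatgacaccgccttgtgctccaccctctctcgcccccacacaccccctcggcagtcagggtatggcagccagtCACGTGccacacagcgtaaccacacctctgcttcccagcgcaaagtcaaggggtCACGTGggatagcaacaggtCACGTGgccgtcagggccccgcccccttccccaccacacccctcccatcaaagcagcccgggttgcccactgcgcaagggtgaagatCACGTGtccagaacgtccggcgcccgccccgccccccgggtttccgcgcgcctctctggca
Cdkn2b: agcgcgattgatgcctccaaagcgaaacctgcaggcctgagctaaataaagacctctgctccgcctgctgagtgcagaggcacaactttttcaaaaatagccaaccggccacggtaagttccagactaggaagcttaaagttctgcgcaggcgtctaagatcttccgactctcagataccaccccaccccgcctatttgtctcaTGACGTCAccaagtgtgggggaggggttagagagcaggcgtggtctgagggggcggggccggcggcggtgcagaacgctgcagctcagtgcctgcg
The Cdk4 window held 4 E-boxes, at -172, -118, -98 and -11 from the gene start. Of 32851 mouse promoter windows of this kind, 7.15% held at least 1 E-box and 8 windows held 4 or more. The Cdkn2b window held 1 cAMP response element at -46, a motif present in 1.79% of the windows. Both motifs read the same on either strand, and they were among 5 motifs searched, the others being the TCF/LEF core CTTTGA, the GC box GGGCGG and the CCAAT box, each on both strands. The Cdk4 window also held 1 TCF/LEF core and 3 GC boxes and the Cdkn2b window 1 GC box, motifs present in 16.0% and 35.7% of the windows. The letters are a description and not a measurement of binding. Windows were found for 7 of the 10 genes, and Ccnd1, Ccnd2 and Rb1 had none.

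The members lie on 7 chromosomes in the annotation of GRCm38, and each is annotated as protein coding. Cdkn2a (ENSMUSG00000044303) and Cdkn2b (ENSMUSG00000073802) are neighbours on chromosome 4, from 89274471 to 89294653 and from 89306299 to 89311039, both on the minus strand. Cdkn2c (ENSMUSG00000028551) lies on the same chromosome from 109660876 to 109667189, also on the minus strand. Cdk4 (ENSMUSG00000006728) occupies chromosome 10, plus strand, from 127063534 to 127067920. Ccnd2 (ENSMUSG00000000184) and Cdkn1b (ENSMUSG00000003031) share chromosome 6, from 127125162 to 127152193 on the minus strand and from 134920401 to 134925513 on the plus strand. Counts were per gene, so the p16INK4a and p19ARF transcripts of Cdkn2a were not separated.

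Gene counts summed to between 20577276 and 40068718 per sample. All 7 epithelial markers were present, at 10500 to 21300 CPM (per-million read counts) in sum, while 0 of 8 fibroblast and smooth muscle markers were among the genes counted. Of the immune markers 3 of 6 were counted, at 2.58 to 7.08 CPM in sum, and of the endothelial and glial markers 1 of 4, at 0.216 to 2.71 CPM. Trp53 went with its labels, as the LSL cassette silences its allele until Cre acts. With EtOH it was at 57.9 ± 5.92 CPM (SD, n = 4) in PAC and 54.3 ± 3.97 (n = 4) in BPAC, against 112 ± 5.18 (n = 2) in AC and 110 ± 10.4 (n = 4) in BAC, and with 4-HT at 165 to 216 CPM. Braf lay between 21.2 and 26.3 CPM in the group means and was called lower with 4-HT in PAC, at a log2 change of -0.30 ± 0.09 (SE, edgeR, adjusted p = 0.00798), and in no other genotype. Apc, of which 4-HT removes only part, was at 33.9 to 38.2 CPM with EtOH and 59.4 to 72.3 with 4-HT. The PAC 4-HT samples of duplicate 1 (replicates 1 and 2) stood apart. Both held Xist (25.2 and 22.0 CPM) together with Y-linked counts (55.0 and 53.5 CPM), although the other samples of the 2 donors held only one kind, and they were the most similar pair of all samples, with a root mean square log2 difference of 0.204 against 0.346 for the next pair. Their labels as separate donors are therefore uncertain, and the PAC changes were also fitted with both samples summed to 1 and with both cultures left out.

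Per length of transcript, the order of the members differed between EtOH and 4-HT. With EtOH the inhibitor Cdkn2b was highest, at group means of 150 to 196 CPM per kb, followed by Cdk4 at 96.2 to 101 and Ccnd2 at 74.8 to 90.6. Ccnd3 (30.9 to 35.4) and Ccnd1 (12.3 to 14.9) came next. With 4-HT the order was Cdk4 at 162 to 195 CPM per kb, Ccnd2 at 95.2 to 136, Cdkn2b at 48.5 to 78.6, Ccnd3 at 37.3 to 50.6 and Ccnd1 at 23.9 to 25.9. With 4-HT, Ccnd3 and Cdkn2b lay within their spread in BAC, at 49.6 ± 0.912 and 48.5 ± 2.09 CPM per kb (SD, n = 4), and in BPAC, at 50.6 ± 6.69 and 52.7 ± 11.4. Among the members the most abundant inhibitor with EtOH was Cdkn2b. It lay above its target kinase Cdk4 in the EtOH means of every genotype and below it in the 4-HT means of every genotype. Cdk4 and Ccnd2 with EtOH in AC, 96.2 ± 6.29 and 88.6 ± 16.3 CPM per kb (SD, n = 2), did not differ beyond their spread. The same held in BAC, at 101 ± 12.2 and 90.6 ± 7.33 (SD, n = 4), and in BPAC, at 96.9 ± 13.5 and 83.1 ± 13.2. Ccnd3 stood above Ccnd1 only by the principal transcript. By all annotated exons Ccnd1 was higher, 11.8 against 7.44 CPM per kb with EtOH in AC, and Cdkn2b with 4-HT in PAC was above Ccnd2, 78.6 against 64.0. By this length Ccnd3 with 4-HT was below Cdkn2b, at 12.0 against 48.5 in BAC and 12.2 against 52.7 in BPAC. Rb1, Cdkn2c and Cdk6 lay between 4.4 and 13.8 CPM per kb in both treatments, and their neighbours in this order overlapped. Cdkn1b was at 1.62 to 2.54 and Cdkn2a at 0.517 to 1.95 CPM per kb. In bulk RNA, fewer cells that express a gene and less RNA per cell cannot be told apart.

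**Figure D1:**
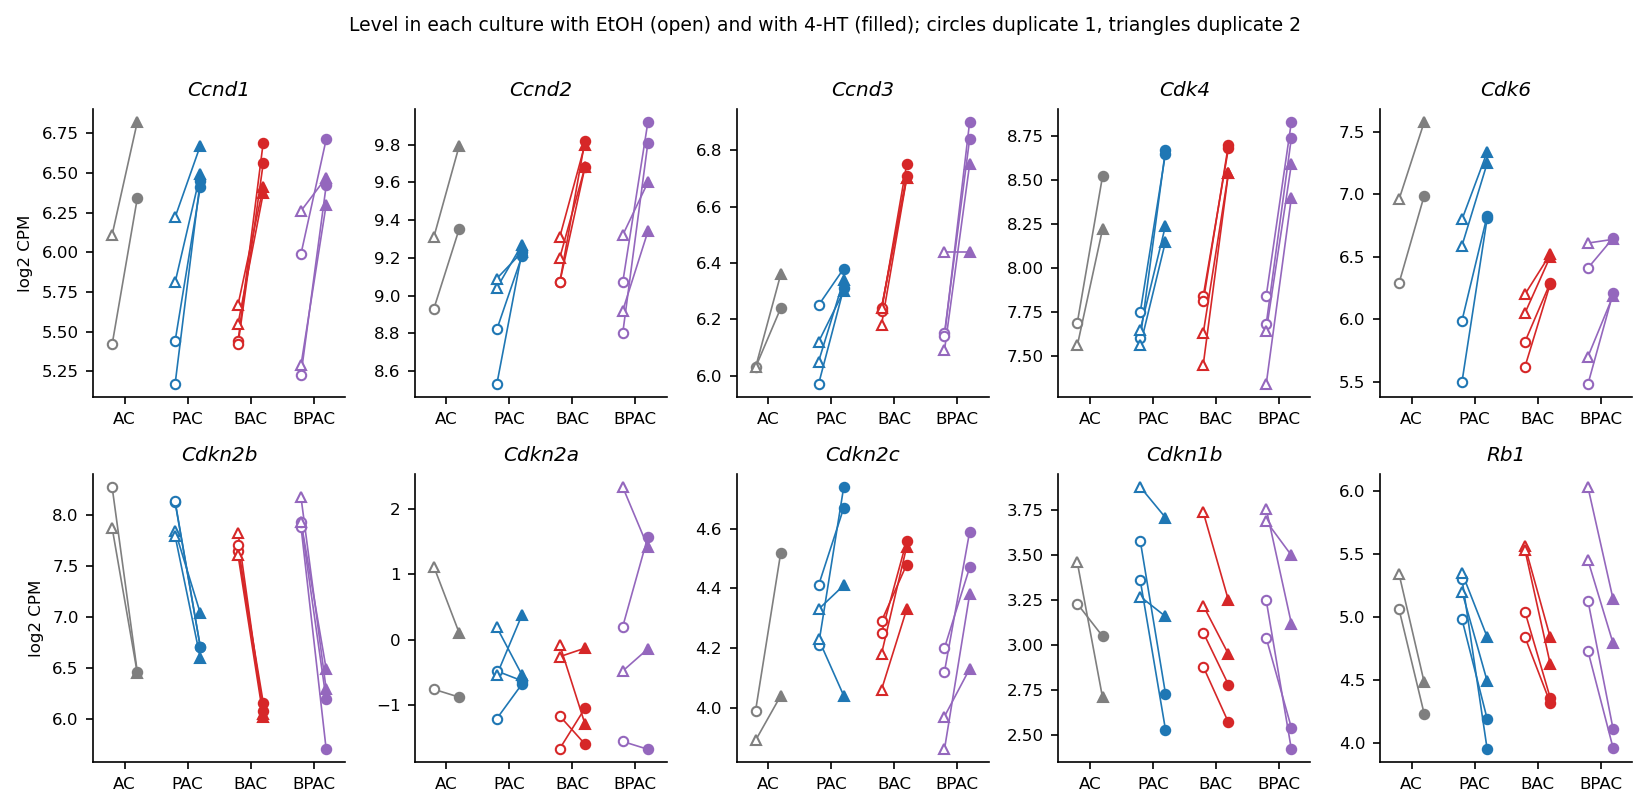
Level of the 10 genes in each culture on the log2 CPM scale, by genotype, with a line from the EtOH sample (open) to the 4-HT sample (filled) of the same culture; circles are duplicate 1 and triangles duplicate 2. Cdk4, Ccnd1, Ccnd2 and Cdk6 rose in 14 of 14 cultures, and Cdkn2b, Cdkn1b and Rb1 were lower with 4-HT in 14 of 14.

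Whether 4-HT changed the members was tested in each genotype with edgeR's quasi-likelihood test, adjusted over all 13519 genes by the Benjamini-Hochberg method, with a threshold of 0.01. In AC 2 of 10 members passed (1 higher, 1 lower), against 7.25% of all genes (3.0% higher, 4.25% lower). For PAC the count was 3 (2 higher, 1 lower), against 23.4% (11.2% higher, 12.2% lower). In BAC 5 passed (4 higher, 1 lower), against 41.9% (20.3% higher, 21.5% lower). The count in BPAC was 6 (4 higher, 2 lower), against 45.0% (22.0% higher, 23.0% lower). EtOH and 4-HT samples of a culture share their donor and duplicate, and with the culture as a replicate block 5, 5, 7 and 9 members passed in AC, PAC, BAC and BPAC, against 16.4%, 34.9%, 51.9% and 54.4% of all genes. Not all of these calls held with the samples of a donor summed, where Cdk6 passed in no genotype. The median log2 change of the members was 0.32, 0.21, 0.37 and 0.34 in the 4 genotypes in the same order, and that of all genes lay between -0.036 and 0.008. Where nothing says that cultures of a donor were started separately, p-values measure the spread between these samples.

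**Figure D2:**
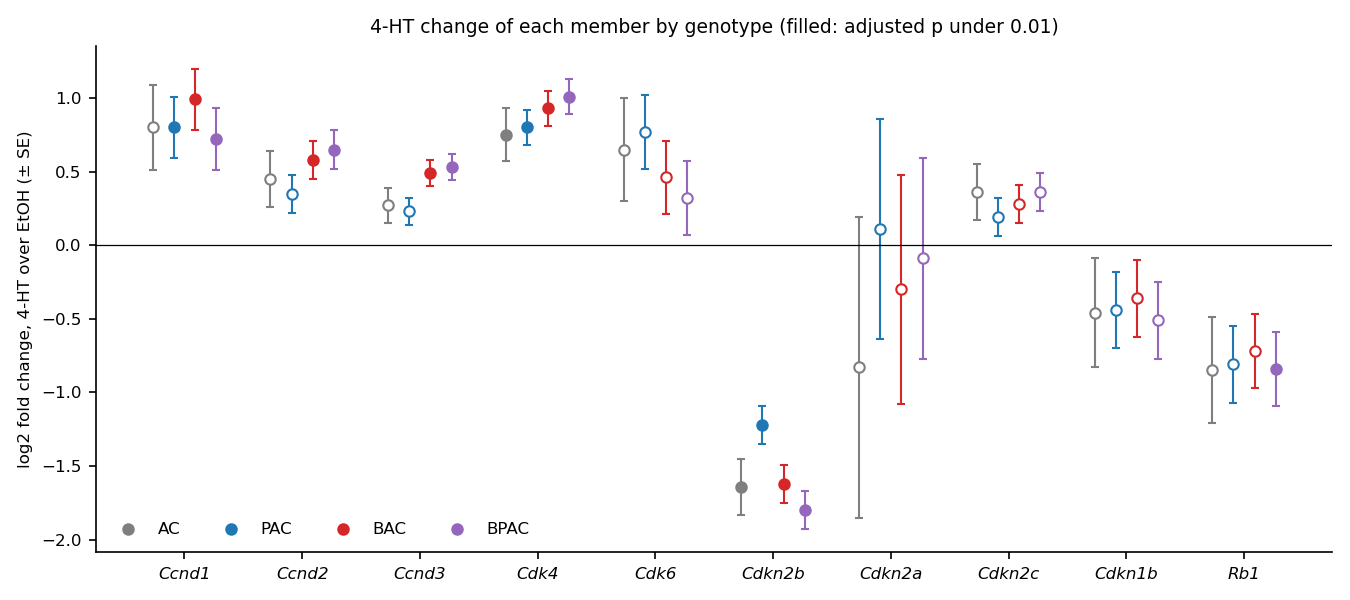
The log2 fold change of each member with 4-HT over EtOH (± SE, edgeR) by genotype; filled points have an adjusted p under 0.01. Cdk4 and Cdkn2b are filled in all 4 genotypes, while Cdkn2a has the widest error bars, up to 1.02 in AC.

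Among the D cyclins, Ccnd1, a classical target of WNT and ERK signaling, was higher with 4-HT in 14 of 14 cultures, by 0.21 to 1.28 on the log2 scale. EtOH samples were at 42.7 and 68.8 CPM in AC, 43.3, 35.8, 56.0 and 74.4 in PAC, 43.2, 42.9, 50.8 and 46.9 in BAC, and 37.6, 63.3, 39.1 and 76.6 for BPAC, in the order of replicates 1 to 4. In 4-HT samples the level was 80.7 and 113 CPM in AC, 84.9, 87.2, 90.0 and 102 in PAC, 103, 94.3, 84.9 and 82.6 in BAC, and 85.5, 104, 78.7 and 88.8 for BPAC. All 4-HT samples lay above the EtOH samples of their genotype, and the EtOH samples of PAC and BPAC were spread over a wider range than the 4-HT samples. The log2 fold change was 0.80 ± 0.29 (SE) in AC (adjusted p = 0.063; 0.00632 with the replicate block), 0.80 ± 0.21 in PAC (0.00434), 0.99 ± 0.21 in BAC (0.000308) and 0.72 ± 0.21 for BPAC (0.00471). The call in PAC was lost without PAC replicate 1, 2 or 3 (adjusted p = 0.0283, 0.0374 and 0.0154), and that in BPAC without BPAC replicate 1, 2 or 3 (0.0348, 0.0156 and 0.0213). Both also missed it with the samples of a donor summed (0.0203 and 0.0169), and so did AC (0.129). With the PAC cultures of duplicate 1 left out, the PAC change was 0.56 (adjusted p = 0.216), and with their 4-HT samples summed it was 0.82 (0.00856).

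Ccnd2 was the D cyclin with the most reads and held between 60.4% and 65.8% of the sum of the 3 D cyclins per length in the group means. In EtOH samples the level was 487 and 634 CPM in AC, 452, 370, 527 and 546 in PAC, 536, 537, 633 and 589 in BAC, and 445, 538, 483 and 638 for BPAC. In 4-HT samples the level was 653 and 883 CPM in AC, 593, 601, 617 and 599 in PAC, 906, 819, 890 and 819 in BAC, and 897, 971, 649 and 778 for BPAC. The 4-HT samples of PAC were narrowly spread and lower than every other 4-HT sample. The rise was 0.58 ± 0.13 in BAC (adjusted p = 0.000796) and 0.65 ± 0.13 in BPAC (0.000243). The changes in AC, 0.45 ± 0.19 (0.102), and in PAC, 0.35 ± 0.13 (0.0452), did not pass, although all 14 cultures were higher with 4-HT. Without BAC replicate 1 the BAC change of 0.52 missed the threshold (0.0103). The PAC change was 0.35 with the 4-HT samples of duplicate 1 summed (0.0753) and 0.18 with those cultures left out (0.578).

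Ccnd3 moved less and varied less. Its values with EtOH were 65.2 and 65.4 CPM in AC, 62.6, 76.2, 66.0 and 69.3 in PAC, 75.1, 75.7, 72.6 and 75.8 in BAC, and 70.9, 70.5, 87.0 and 68.1 for BPAC. Those with 4-HT were 75.3 and 82.1 CPM in AC, 79.5, 83.2, 81.2 and 78.6 in PAC, 108, 105, 104 and 104 in BAC, and 114, 119, 86.9 and 107 for BPAC. All BAC samples with 4-HT lay above all AC and PAC samples with 4-HT, and BPAC replicate 3 was the exception to the rise, with nearly the same level in both treatments. The change was 0.49 ± 0.09 in BAC (adjusted p = 3.69e-05) and 0.53 ± 0.09 in BPAC (1.16e-05), while 0.27 ± 0.12 in AC (0.127) and 0.23 ± 0.09 in PAC (0.0338) did not pass. In PAC the call depended on a sample of another genotype, since without BPAC replicate 3 the adjusted p was 0.00278. Summing the PAC 4-HT samples of duplicate 1 gave 0.23 (0.0674), and leaving out those cultures 0.24 (0.24).

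The kinase Cdk4 rose in every genotype. Its values with EtOH were 207 and 188 CPM in AC, 216, 194, 201 and 189 in PAC, 228, 224, 198 and 175 in BAC, and 204, 229, 162 and 199 for BPAC. Those with 4-HT were 367 and 299 CPM in AC, 402, 407, 302 and 284 in PAC, 409, 417, 373 and 372 in BAC, and 428, 455, 338 and 385 for BPAC. The lowest 4-HT sample of all, at 284 CPM, was above the highest EtOH sample, at 229 CPM. The log2 change was 0.75 ± 0.18 in AC (adjusted p = 0.00497), 0.80 ± 0.12 in PAC (4.53e-05), 0.93 ± 0.12 in BAC (1.17e-06) and 1.01 ± 0.12 for BPAC (2.66e-07). These correspond to 1.69-fold, 1.74-fold, 1.90-fold and 2.02-fold. Leaving out either AC culture ended the call in AC (0.17 and 0.0714), and without the PAC cultures of duplicate 1 the PAC change was 0.59 (0.0364), while with their 4-HT samples summed it was 0.72 (0.000364).

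Cdk6, the second partner of the D cyclins, was higher with 4-HT in 14 of 14 cultures, but by amounts from 0.03 to 1.30. With EtOH it was at 78.4 and 124 CPM in AC, at 63.6, 45.3, 111 and 96.0 in PAC, at 49.0, 56.5, 73.6 and 66.3 in BAC, and at 44.4, 85.0, 51.7 and 97.6 for BPAC. With 4-HT it was at 127 and 192 CPM in AC, at 114, 112, 162 and 152 in PAC, at 77.8, 78.4, 91.6 and 90.8 in BAC, and at 74.2, 101, 72.9 and 99.6 for BPAC. All 4-HT samples of AC and PAC lay above all those of BAC and BPAC. No genotype passed the threshold without the block, with changes of 0.65 ± 0.35 in AC (adjusted p = 0.216), 0.77 ± 0.25 in PAC (0.0179), 0.46 ± 0.25 in BAC (0.12) and 0.32 ± 0.25 for BPAC (0.288). With the replicate block the change passed in each, at adjusted p = 0.00593, 3.13e-05, 0.0017 and 0.00904. With the samples of a donor summed it passed in none (0.262, 0.0354, 0.132 and 0.292). The PAC change was 0.85 with the 4-HT samples of duplicate 1 summed (0.0201) and 0.60 with those cultures left out (0.224). Between the cultures of a donor, Cdk6 with EtOH was higher in duplicate 2 than in duplicate 1 in 7 of 7 donors, by 0.54 ± 0.34 (SD) on the log2 scale.

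Cdkn2b, which encodes the CDK4 and CDK6 inhibitor p15INK4b and is known as a target of TGFβ signaling, fell in every genotype and had the largest change of the 10 members. With EtOH it was at 310 and 235 CPM in AC, at 281, 282, 230 and 222 in PAC, at 201, 210, 195 and 227 in BAC, and at 237, 245, 245 and 290 for BPAC. With 4-HT it was at 87.8 and 87.3 CPM in AC, at 104, 105, 131 and 96.9 in PAC, at 71.5, 67.5, 64.7 and 66.2 in BAC, and at 51.9, 73.0, 89.9 and 78.1 for BPAC. No 4-HT sample overlapped any EtOH sample. The log2 fold change was -1.64 ± 0.19 in AC (adjusted p = 1.28e-05), -1.22 ± 0.13 in PAC (1.03e-06), -1.62 ± 0.13 in BAC (9.26e-10) and -1.80 ± 0.13 for BPAC (1.29e-10). These are 3.11-fold, 2.32-fold, 3.08-fold and 3.48-fold lower levels. Without AC replicate 1 the AC change was -1.43 and missed the threshold (0.0124). With the PAC cultures of duplicate 1 left out, the PAC change of -0.99 still passed (0.00881), as did that of -1.19 with the samples summed (1.27e-05).

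The neighbouring Cdkn2a, whose products p16INK4a and p19ARF are the best known mediators of oncogene-induced arrest, was barely counted. It had 5 to 123 reads per sample, and group means of 0.463 to 1.75 CPM. Cultures went both ways, 6 higher and 8 lower with 4-HT. No change was called in any genotype, and the standard errors of 0.68 to 1.02 on the log2 scale leave room for large changes. In BPAC its level went with the donor: in donor 2 it was at 1.08 and 5.0 CPM with EtOH and 2.93 and 2.61 with 4-HT, and in donor 1 at 0.268 and 0.646 with EtOH and 0.242 and 0.834 with 4-HT.

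Cdkn2c, encoding p18INK4c, lay between 14.5 and 26.6 CPM and was higher with 4-HT in 13 of 14 cultures. Its changes of 0.36 ± 0.19, 0.19 ± 0.13, 0.28 ± 0.13 and 0.36 ± 0.13 in AC, PAC, BAC and BPAC did not pass (adjusted p = 0.195, 0.271, 0.0719 and 0.0223). With the replicate block BPAC passed (0.00777). In the same samples, then, the INK4 genes had values of different sign: Cdkn2b fell, while Cdkn2c had positive values in each genotype, except in PAC with the cultures of duplicate 1 left out (-0.05), and Cdkn2a was counted at few reads.

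Cdkn1b, encoding p27, was lower with 4-HT in 14 of 14 cultures, by 0.10 to 0.85 on the log2 scale. It lay between 7.27 and 14.6 CPM with EtOH and between 5.27 and 13.0 CPM with 4-HT, so that the ranges overlapped. The changes were -0.46 ± 0.37 in AC, -0.44 ± 0.26 in PAC, -0.36 ± 0.26 in BAC and -0.51 ± 0.26 for BPAC, with adjusted p = 0.431, 0.193, 0.252 and 0.0962. Only BPAC passed with the replicate block (0.00449). In PAC the value was -0.31 with the 4-HT samples of duplicate 1 summed (0.414) and -0.14 with those cultures left out (0.839).

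Rb1, the pocket protein that the D cyclin kinases inactivate, was also lower in 14 of 14 cultures. With EtOH it was at 33.2 and 40.5 CPM in AC, at 31.4, 39.4, 36.7 and 40.8 in PAC, at 32.9, 28.6, 47.0 and 46.2 in BAC, and at 34.8, 26.5, 65.1 and 43.7 for BPAC. With 4-HT it was at 18.7 and 22.3 CPM in AC, at 18.1, 15.4, 22.4 and 28.5 in PAC, at 20.5, 20.0, 28.5 and 24.8 in BAC, and at 17.2, 15.5, 35.1 and 27.6 for BPAC. The treatments did not overlap within AC, PAC and BAC, and they overlapped in BPAC. The change was -0.85 ± 0.36 in AC (adjusted p = 0.109), -0.81 ± 0.26 in PAC (0.0154), -0.72 ± 0.25 in BAC (0.0192) and -0.84 ± 0.25 for BPAC (0.00708). With the replicate block it passed in all 4 genotypes, at 0.000902, 1.94e-05, 2.63e-05 and 3.83e-06. The BPAC call was lost without BPAC replicate 1 (0.0275), BPAC replicate 4 (0.0167) or PAC replicate 3 (0.0107), and with scaling by library size alone, at -0.61 (0.0372), while without BPAC replicate 2 or 3 PAC (0.00704 and 0.00392) and BAC (0.00908 and 0.00541) passed too. With the PAC cultures of duplicate 1 left out, the PAC change was -0.60 (0.32), and with the samples summed -0.72 (0.0547). Donor sums passed in PAC, BAC and BPAC (0.00509, 0.00546 and 0.00114) and not in AC (0.0347).

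Duplicates 1 and 2 differed in several members by as much as the 4-HT changes of the smaller ones. With EtOH, Ccnd1, Ccnd2 and Rb1 were, like Cdk6, higher in duplicate 2 in 7 of 7 donors, by 0.40 ± 0.35, 0.27 ± 0.15 and 0.48 ± 0.31 (SD) on the log2 scale, and Cdk4 was lower in 7 of 7 (-0.20 ± 0.12). With 4-HT the order for Ccnd1 and Ccnd2 was mixed (higher in 3 of 7 donors), whereas Rb1 was again higher and Cdk4 again lower in duplicate 2 in 7 of 7. Duplicates are called distinct passages by the study, and the part of passage in these values was not tested.

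The effect of the Braf allele was asked as the mean 4-HT change in BAC and BPAC minus that in AC and PAC. None of the 10 members passed the threshold in edgeR (0 of 10, against 6.61% of all genes), 1 had an unadjusted p under 0.05, and with the replicate block the counts were 0 and 4, against 6.51% of all genes called higher and 7.48% lower. DESeq2 and limma-voom also called 0. The largest differences were -0.32 ± 0.28 (SE) for Cdk6 (adjusted p = 0.479), -0.28 ± 0.14 for Cdkn2b (0.195) and 0.26 ± 0.10 for Ccnd3 (0.0712). For Ccnd3, without BPAC replicate 3, the sample that showed no rise, the difference was 0.34 and passed (0.00123). For Cdkn2b the Braf difference was 0.01 ± 0.22 without the Trp53 allele (BAC minus AC, adjusted p = 0.99) and -0.58 ± 0.18 with it (BPAC minus PAC, 0.044), and the latter comparison rests on the PAC samples described above. For the Trp53 allele 0 of 10 members passed, with or without the block, against 0.0148% of all genes, and 0 had an unadjusted p under 0.05.

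The levels after 4-HT were compared between organoids with and without the Braf allele. In edgeR 3 of 10 members passed, against 30.2% of all genes, so the share of members was that of the background. Ccnd3 was higher in organoids carrying the allele, by 0.41 ± 0.07 on the log2 scale (adjusted p = 3.98e-05). Cdk6 was lower, with a difference of -0.77 ± 0.19 (0.00234), and so was Cdkn2b, at -0.48 ± 0.10 (0.000529). With the duplicate number as a replicate block Cdk4 passed as well, at 0.23 ± 0.06 higher (0.00359), giving 4 of 10, against 40.0%, but not with donor sums (0.0292). Ccnd2 was higher by 0.31 ± 0.11 and missed the threshold (0.0234), and passed without BPAC replicate 3 (0.00734). Cdk6 missed it without AC replicate 2, at -0.61 (0.034), with donor sums, at -0.74 (0.0113), and in duplicate 1 alone, at -0.54 (0.0561). Leaving out the PAC cultures of duplicate 1 gave 0.42, -0.88 and -0.51 for Ccnd3, Cdk6 and Cdkn2b, all past the threshold, and Cdk4 then passed at 0.35 (0.0073). With EtOH, before recombination, 0 of 10 passed, against 0.0296% of all genes, while 2 had an unadjusted p under 0.05, namely Ccnd3 at 0.15 ± 0.07 and Cdk6 at -0.45 ± 0.20, in the same directions as with 4-HT.

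Over donors, the means with 4-HT of the 4 donors with and the 3 donors without the Braf allele did not overlap for 5 of 10 members, Ccnd2, Ccnd3, Cdk4, Cdk6 and Cdkn2b, against 57.8% of all genes. Donor means of Ccnd3 were 6.72, 6.70, 6.64 and 6.82 log2 CPM with the allele and 6.30, 6.33 and 6.34 without. For Cdk6 they were 6.40, 6.40, 6.20 and 6.65 against 7.29, 7.09 and 7.03. Each of the 5 gave a p of 0.0286 in a two-sided exact permutation test over 35 splits, the smallest p that 7 donors allow. After adjustment over all genes it was 0.0595. Means that do not overlap give a p at or near this floor, so the test adds nothing to the non-overlap. The PAC donors count as 2 here, although the labels of their 4-HT samples of duplicate 1 are uncertain. In duplicate 2 alone Ccnd3, Cdk4 and Cdk6 of the 5 stayed apart, while Ccnd2 and Cdkn2b overlapped. With EtOH the donor means overlapped for all 10 members, and 7.7% of all genes did not overlap. For the 4-HT change itself, 4 of 10 members did not overlap (Ccnd2, Ccnd3, Cdk4 and Cdk6), against 35.3% of all genes, with exact permutation p of 0.0286 for Ccnd2 and 0.0571 for the other 3 members, or 0.113 and 0.161 after adjustment over all genes. A change of Ccnd2 by 0.62, 0.54, 0.72 and 0.57 in donors with the allele stood against 0.45, 0.31 and 0.42 in those without. In duplicate 1 alone only the change of Ccnd3 did not overlap, and in duplicate 2 alone only those of Cdk4, Cdk6, Cdkn2b and Cdkn2c. No member stayed apart in both.

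**Figure D3:**
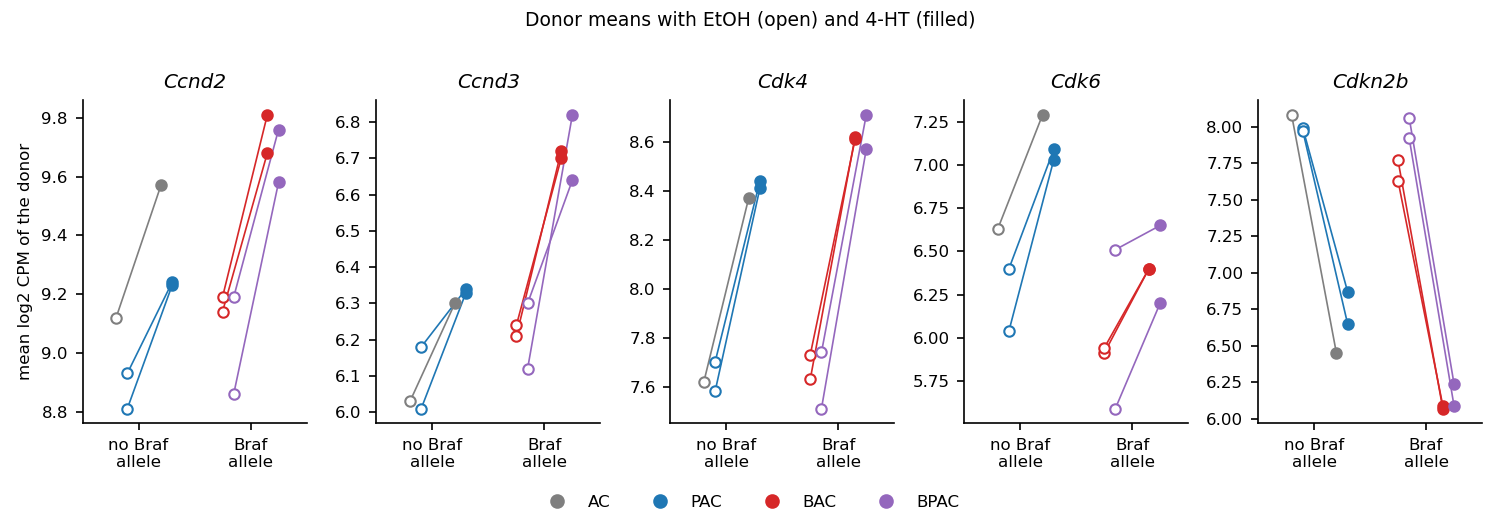
Mean log2 CPM of each of the 7 donors with EtOH (open) and with 4-HT (filled), for the 5 members whose 4-HT donor means did not overlap between donors without and with the Braf allele; lines join the 2 treatments of a donor and colors give the genotype. With EtOH the donors of the 2 kinds overlap for each gene.

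The balance of the 2 kinases moved with these levels. Per length, Cdk4 exceeded Cdk6 26.3-fold (SD 3.89, n = 4) in BAC and 26.4-fold (SD 4.45, n = 4) in BPAC with 4-HT, against 12.5-fold (SD 5.32, n = 2) in AC and 15.3-fold (SD 5.56, n = 4) in PAC. With EtOH the ratio was 11.6 to 19.6 in the group means and ranged from 8.50 to 26.2 over samples. The lowest 4-HT ratio with the Braf allele was 21.7 and the highest without it was 20.4. Over 4-HT samples it ranged from 8.75 to 16.3 in AC and from 10.5 to 20.4 in PAC, where donor labels of duplicate 1 are uncertain. With EtOH, Cdk4 was lower and Cdk6 higher in duplicate 2 in 7 of 7 donors, so the ratio also went with the duplicate. This ratio was chosen after its values were seen and was not tested.

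The genes on which this pathway acts moved with 4-HT in the direction of the D cyclins and Cdk4. Of 14 S-phase genes under E2F control, 9 were called higher in AC, 12 in PAC, 12 in BAC and 13 for BPAC and 0 lower, with median log2 changes of 0.75, 0.75, 1.13 and 1.22. The background of higher calls was 3.0%, 11.2%, 20.3% and 22.0% of all genes. Mcm2, a subunit of the replicative helicase, rose by 1.02 ± 0.22, 0.99 ± 0.16, 1.34 ± 0.16 and 1.46 ± 0.16 in the 4 genotypes in the order AC to BPAC, and the helicase genes Mcm3, Mcm4 and Mcm7 rose in all 4 genotypes too. The ribonucleotide reductase subunits Rrm2 and Rrm1, which supply deoxynucleotides, rose in all 4 genotypes, and their rise in Braf organoids exceeded that in the others by 0.72 ± 0.11 (adjusted p = 9.92e-05) and 0.47 (0.00366). These were 2 of the 14 genes called for the Braf difference, against 6.61% of all genes, and that of Mcm2, at 0.40, did not pass (0.132).

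Among the later cyclins and their kinases, 3, 5, 6 and 6 of 7 were called higher in AC, PAC, BAC and BPAC and 0 lower. The background was 3.0%, 11.2%, 20.3% and 22.0% of all genes higher and 4.25%, 12.2%, 21.5% and 23.0% lower. With the replicate block 6 were higher in each genotype and 0, 0, 1 and 1 lower. Its background was 16.4%, 34.9%, 51.9% and 54.4% of all genes in either direction. Ccnb1, the mitotic cyclin, rose by 0.61, 0.47, 1.12 and 1.28 (adjusted p = 0.00382, 0.000558, 2.1e-09 and 2.08e-10), and Ccna2, the S-phase cyclin, by 0.48, 0.32, 0.88 and 0.97 (0.00175, 0.000832, 5.58e-10 and 7.88e-11). For both the rise was larger with the Braf allele, by 0.66 (0.000236) and 0.53 (8.12e-05). Of the 7 genes only these 2 were called for the Braf difference, against 6.61% of all genes. Ccne1 (0.257), Ccnb2 (0.436) and Cdk1 (0.0116) did not pass, and Cdk1 passed with the replicate block (0.00139). With the block 4 of 7 were called higher, against 6.51% of all genes. Cdk2, the kinase partner of cyclins E and A, rose by 0.65, 0.55, 1.04 and 1.06, and its Braf difference of 0.45 missed the threshold (0.017), which it passed with the replicate block (0.00542). The G1/S cyclin gene Ccne2, named after its values were seen, went the other way, with changes of -0.67, -0.25, -0.66 and -0.66 that did not pass (adjusted p = 0.132, 0.372, 0.0119 and 0.0115), and with the replicate block it passed as lower in BAC (0.00131) and BPAC (0.000646).

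Of 12 pocket proteins and E2F factors, 2, 3, 7 and 6 were called higher and 0, 1, 1 and 1 lower. Of all genes 3.0%, 11.2%, 20.3% and 22.0% were called higher and 4.25%, 12.2%, 21.5% and 23.0% lower. With the replicate block 4, 4, 7 and 8 were higher and 0, 1, 2 and 2 lower. For the Braf difference 0 of 12 were called, and 2 with the replicate block. The activator E2f1 rose by 0.81, 0.76, 0.86 and 0.87, and E2f6, a repressor of the family, by 0.69, 0.66, 0.99 and 1.11. Of the other pocket protein genes, Rbl1 had positive changes of 0.24, 0.17, 0.53 and 0.33, called in BAC (0.00106), and Rbl2 negative ones of -0.32, -0.29, -0.33 and -0.32, called in none. With the replicate block Rbl1 passed in BPAC as well (0.00621), and Rbl2 passed in BAC (0.00388) and BPAC (0.00592). Both were named after their values were seen.

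Of 4 other CDK inhibitors, 0 were called higher in AC, PAC and BAC and 1 in BPAC, and 1, 2, 1 and 2 were called lower. Of all genes 3.0%, 11.2%, 20.3% and 22.0% were called higher and 4.25%, 12.2%, 21.5% and 23.0% lower. Cdkn1c, encoding p57, fell in all 4 genotypes, with changes of -1.02, -0.61, -0.52 and -0.80 (adjusted p = 0.00152, 0.00157, 0.00317 and 3.58e-05). The p53 target Cdkn1a, chosen after its values were seen, fell in PAC by 1.01 (0.000686) and in BPAC by 0.87 (0.00113) and had values of -0.62 (0.157) and -0.58 (0.0216) in AC and BAC, of which BAC passed with the replicate block (0.00156). Of 12 counted genes for CDK activation and for the turnover of cyclin D or p27, 0, 2, 7 and 7 were called higher and 1, 1, 1 and 2 lower. These counts stand against the same shares of all genes. Fbxo4, an F-box protein linked to cyclin D1 turnover, fell in all 4, with changes of -0.71, -0.45, -0.43 and -0.52. Cks1b, a cofactor of p27 degradation, rose by 0.77, 1.17 and 1.32 in PAC, BAC and BPAC. In AC it was at 0.60 (0.0233, or 0.00376 with the replicate block). Its Braf difference was 0.56 (0.00867). It was 1 of 12 turnover genes called for that difference and 0 of 4 other CDK inhibitors were called, against 6.61% of all genes.

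**Figure D4:**
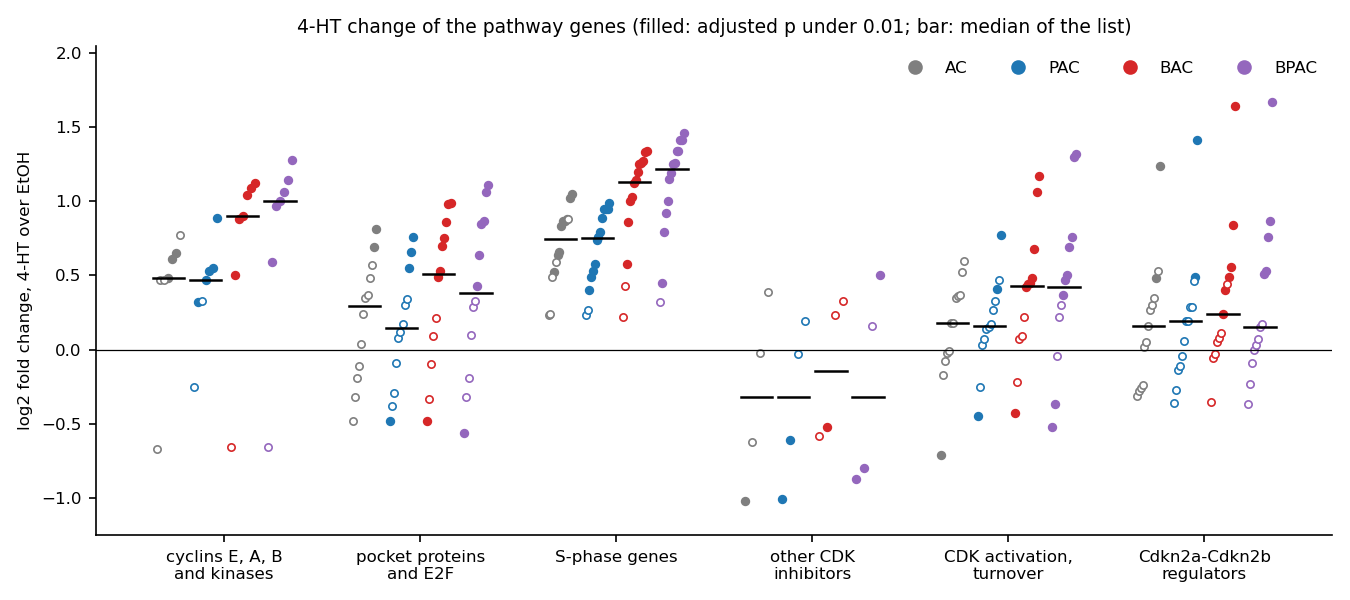
Log2 fold change with 4-HT over EtOH of each gene in 6 pathway lists, by genotype; filled points have an adjusted p under 0.01 in edgeR and black bars are list medians. The S-phase medians lie at 0.75 in AC and PAC and at 1.13 and 1.22 in BAC and BPAC.

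Of 13 known regulators of the Cdkn2a-Cdkn2b locus, 2, 2, 6 and 5 were called higher, against 3.0%, 11.2%, 20.3% and 22.0% of all genes, and 0 lower, with medians of 0.16, 0.19, 0.24 and 0.15. Ets1, a transcription factor that can activate p16INK4a, rose in all 4 genotypes, by 1.24, 1.41, 1.64 and 1.67 on the log2 scale. The list also holds repressors of the locus, so its counts have no single direction. Of these, named after their values were seen, Ezh2, Eed and Cbx7 were called higher in BAC and BPAC. Bmi1, Ring1 and Rnf2 were called in no genotype. With the replicate block 2, 5, 7 and 5 of the 13 were higher. For the Braf difference 0 of 13 were called, and 2 higher and 1 lower with the block. Of 8 senescence markers 6 were counted, fewer than 80%, with 1, 3, 3 and 3 called higher and 0, 1, 1 and 1 lower. Of all genes 4.25%, 12.2%, 21.5% and 23.0% were called lower, beside the shares of higher calls given above. Lmnb1, a nuclear lamin that is lost in senescent cells, rose by 0.60, 0.55, 1.00 and 1.00. It is counted among the markers called higher, so these counts have no single direction either. Epithelial markers moved at the same time, with 0 called higher and 1, 3, 5 and 5 of 7 called lower in AC, PAC, BAC and BPAC. The same shares of lower calls apply. With the replicate block 3, 4, 5 and 6 were lower, against 16.4%, 34.9%, 51.9% and 54.4% of all genes in either direction. Krt20, a keratin of differentiated colonocytes, fell by 1.79, 1.84, 1.74 and 2.14 on the log2 scale, and the part of a shift between cell states in the values of the members was not tested. These counts rest on the same test and threshold as those of the members.

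The genes whose pattern was most like that of each D cyclin were found by the root mean square difference of mean-centred log2 CPM over 28 samples, among 12320 genes with a mean of at least 1 CPM. For Ccnd1 these were Nap1l1 (0.181), Akr1b10 (0.20) and Tubb5 (0.213), for Ccnd2 Alg8 (0.146), Wrb (0.147) and Cd81 (0.155), and for Ccnd3 Rprd1b (0.077), Wbp11 (0.089) and Mrps2 (0.09). A gene with small changes has small differences by this measure, as for Ccnd3.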

How the data were processed

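Counts per gene, whole numbers without normalization, were deposited by the authors for 28 samples. According to the submitters' processing notes reads were trimmed with Trimmomatic 0.39 and aligned with STAR 2.5.2b to GRCm38, and the counting program, annotation and strand setting are not given in the sources used here. The lowest sum over samples was 116, and 13479 of 13519 genes were matched to a symbol of GENCODE. All columns were used.

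Samples were grouped by genotype and treatment from the labels, and 1 sample whose label lacks the duplicate number was used as duplicate 1. After TMM normalization the counts were tested in edgeR 4.0.16 (R 4.3.3), quasi-likelihood, on the 8 groups with one spread for all, a common coefficient of variation of 0.191, and adjustment over all genes at 0.01. Standard errors came from the log2 fold change and F. Log2 CPM used a prior count of 2, and levels per kb the principal transcript. Same-numbered EtOH and 4-HT samples came from the same donor, and their deviations correlated at 0.245 to 0.532 in 14 of 14 cultures, so the culture was used as a block. PAC replicate 1 correlated with another culture as much as with its own (0.26 against 0.245) and PAC replicate 2 nearly so (0.44 against 0.459), so blocked values for PAC rest on a pairing in doubt. Donors were compared by two-sided exact permutation. The tests were tested on simulated data. Alternatives were limma 3.58.1, DESeq2 1.42.0, other scaling, filters, thresholds, donor sums, duplicates, thinning and each culture left out. The PAC cultures of duplicate 1 were left out as an alternative chosen after seeing the data.

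The members, lists and tests were chosen with earlier results of these data known. Named were all members, from each list up to 4 genes called in the same direction in every genotype (largest mean change first) and up to 3 called for the Braf difference, the targeted genes, and 3 genes closest to each D cyclin. The SDs and SEs cover the spread between samples. Figures were drawn with matplotlib 3.10.9.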

Additional observations from a re-analysis of the deposited data

Results flagged for a closer look

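Of 90 groups of 4 values tested for a sample far from the others, 4 were singled out, and chance singles out about 1 in 20 such groups. In BPAC with EtOH, Ccnd3 in replicate 3 was at 6.44 log2 CPM, while the next sample was at 6.15. The 4-HT change of Ccnd3 in the same culture was 0.0 on the log2 scale, against 0.66 to 0.75 in the other 3 BPAC cultures. Cdkn2a in PAC with 4-HT was at 0.38 log2 CPM in replicate 3, on 27 reads, and between -0.68 and -0.54 in the others. Cdkn2b in BPAC with EtOH was at 8.18 log2 CPM in replicate 4, against 7.89 to 7.94 in the other 3. The part of any technical difference in these samples was not tested.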

How the results depend on the processing

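Over 14 left-out cultures the number of members called for a 4-HT change ranged from 0 to 2 in AC, from 2 to 5 in PAC, from 4 to 6 in BAC and from 4 to 6 in BPAC. For the Braf difference of the change it ranged from 0 to 1, for the 4-HT level with the Braf allele from 2 to 4, and for the pathway genes with a Braf difference from 3 to 9 around 5. Those 5 were among 68 counted pathway genes, and 6.61% of all genes were called. The AC count was 0 without AC replicate 1 and 1 without AC replicate 2. Without BPAC replicate 3, PAC had 5, the Braf difference 1 (Ccnd3) and the pathway genes 9, and the pathway genes numbered 3 without AC replicate 1, AC replicate 2 or BAC replicate 2. With the replicate block the counts were 5 in AC and 5 in PAC, against 2 and 3, and 17 pathway genes, and no call of a member was lost. In duplicate 2 alone they were 0 in AC, 0 in PAC, 2 in BAC, 2 in BPAC, 1 for the 4-HT level and 0 for the pathway genes, where fewer samples were fitted. In duplicate 1 alone PAC gave 7 members, the pathway genes 3, and 1 member instead of 4 had donor changes that did not overlap between donors with and without the Braf allele. AC fitted alone gave 1. PAC gave 5 with DESeq2, 6 with library size alone, 7 at an adjusted p of 0.05 and 1 with the PAC cultures of duplicate 1 left out, and the pathway genes then numbered 17 with DESeq2, 9 with those cultures left out and 8 with donor sums. The cause was not tested. Library size alone moved the median log2 change of all genes to 0.23, 0.20, 0.13 and 0.18 in AC, PAC, BAC and BPAC, and then 2, 5, 5 and 5 members were called higher and 1 lower in each. No member called in either scaling changed direction.

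Signs turned only for values that were not called. For the Braf difference of the change, Cdkn1b was at -0.05 with the PAC samples summed, -0.13 with those cultures left out, -0.01 by library size alone and -0.03 thinned, against 0.01, and -0.13 to 0.16 over left-out cultures. Cdkn2a was at -0.11 in duplicate 2 (-0.19 to 0.71 over left-out cultures), Cdkn2c at -0.14 in duplicate 1 (-0.04 to 0.16), Rb1 at -0.06 without the PAC cultures and -0.07 in duplicate 2 (-0.03 to 0.11), and Ccnd1 ranged from -0.02 to 0.17. For the 4-HT level, Ccnd1 was at 0.22 in duplicate 1 (-0.17 to 0.08), Cdkn1b at 0.13 in duplicate 2 (-0.18 to 0.08), Cdkn2a at -0.03 with limma-voom and Cdkn2c at -0.09 in duplicate 1 (-0.07 to 0.18). The Cdkn2a change was 0.13 in duplicate 1 for BAC (-0.53 to 0.08), and for BPAC 1.17 in duplicate 1, 0.12 by library size alone, 0.06 with limma-voom and 0.17 with the replicate block (-0.71 to 1.00), and it ranged from -0.26 to 0.51 in PAC. Cdkn2c in PAC was at -0.05 both without those cultures and in duplicate 2. Of the values of single members and contrasts under all alternatives, 1530 kept direction and side of the threshold, 49 passed it newly, 40 missed it and 41 turned sign. Depth limits Cdkn2a, at 5 to 123 reads per sample.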
